A study of Arabidopsis thaliana with 13 samples.

Results

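The SWEET genes encode sugar transporters, and 9 of them were followed through a time course of Arabidopsis thaliana seedlings on Affymetrix ATH1 arrays, on which several short probes stand for each transcript. The members are the probe sets that the platform annotation gives to a single gene with a numbered SWEET symbol and whose mean log2 signal over the arrays was above 5. Of the 14 numbered SWEET genes named by that annotation, 9 met the level rule: SWEET1, SWEET2, SWEET4, SWEET6, SWEET11, SWEET13, SWEET14, SWEET16 and SWEET17. They are 9 of 13356 genes that had a probe set of their own in the annotation. The least bright member was SWEET6, with a mean log2 signal of 5.47, and the brightest gene left out was SWEET9, with 4.72. One more symbol that begins with the same letters and passed the level, SWEETIE (AT1G67140), is not a numbered member of the transporter family and was not counted.

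RNA came from whole seedlings of the accession Col-0 at the stage labelled 1.0. Plants were kept at 22 C with a photoperiod of 12 h in a growth room, on MS agar that held 3% sucrose, so all samples grew with sugar in the medium. The 13 groups are the hours 26, 30, 34, 38, 42, 46, 50, 54, 58, 62, 66, 70 and 74, with 1 array each. The labels name no mutant or treatment, and they state neither what hour 0 was, nor whether the photoperiod went on during sampling, nor how many seedlings made a sample.

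SWEET proteins are uniporters that let sugars pass a membrane down their gradient. Those of the plasma membrane release sucrose or hexoses from cells, for example from phloem parenchyma before the active carriers load the phloem. SWEET2, SWEET16 and SWEET17 lie in the membrane of the vacuole, where sugars are stored and released, and leaves store and export sugars on a daily schedule.

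Each array as deposited had the same trimmed mean, and the median signal of non-control probe sets ranged from 46.8 to 50.9. The tissue label was checked against fixed markers. All 4 leaf markers were bright, with LHCB4.1, an antenna protein of photosystem II, between 2422 and 3919 and RCA, the activase of Rubisco, between 2418 and 3950.1. Of the 3 root markers, the beta-glucosidase PYK10 was between 2524 and 3492, while the root hair expansins EXPA7 and EXPA18 were at 21.7 to 60.8 and 35.3 to 64.9. In limma's tests described below, drift was called for 0 of these 7 markers (0 at an unadjusted p under 0.05). A 24 h rhythm was called for 1, LHCB4.2 (peak at hour 3.47). Of all probe sets tested, 0.359% were called as rising, 0.601% as falling and 18.3% as rhythmic, and 11.1% had an unadjusted drift p under 0.05. With shares this low, counts on 7 markers do not show that the tissue make-up was steady. Markers of phloem companion cells, pollen and seed were not analysed here. In whole seedlings, fewer cells of a type and less RNA per cell cannot be told apart. Signals of different probe sets cannot be ranked against each other as amounts of RNA. The level rule, the filter and words such as bright refer to array signal alone. Otherwise levels are compared only within a gene. Between genes, only fitted amplitudes, slopes, peak times and the shape of the course are set side by side.

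The first question was which SWEET transcripts followed a course with a 24 h period. Those of SWEET16, SWEET17, SWEET13 and SWEET2 did, with fitted changes from trough to peak of 1.57-fold to 1.96-fold and peaks spread from hour 21.2 across hour 24 to hour 6.73 (hours are those of the course modulo 24). Of these, SWEET2, SWEET16 and SWEET17, are the vacuolar members. A curve with a 24 h period and a linear trend was fitted to log2 signal across all 13647 probe sets that passed the filter on dim signal, and the daily terms were tested with limma's moderated F test and Benjamini-Hochberg adjustment. Of the 9 members, 4 were called at an adjusted p under 0.05, against 18.3% of all probe sets tested. The median amplitude, which is the distance in log2 units from the middle of the curve to its crest, was 0.32 over the members and 0.14 over all probe sets tested. Members were chosen with earlier results of these data known, so neither contrast with all probe sets is a test of the family. With 1 array per time point, the p-values measure the scatter round the curve and not the spread between separate cultures.

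**Figure D1:**
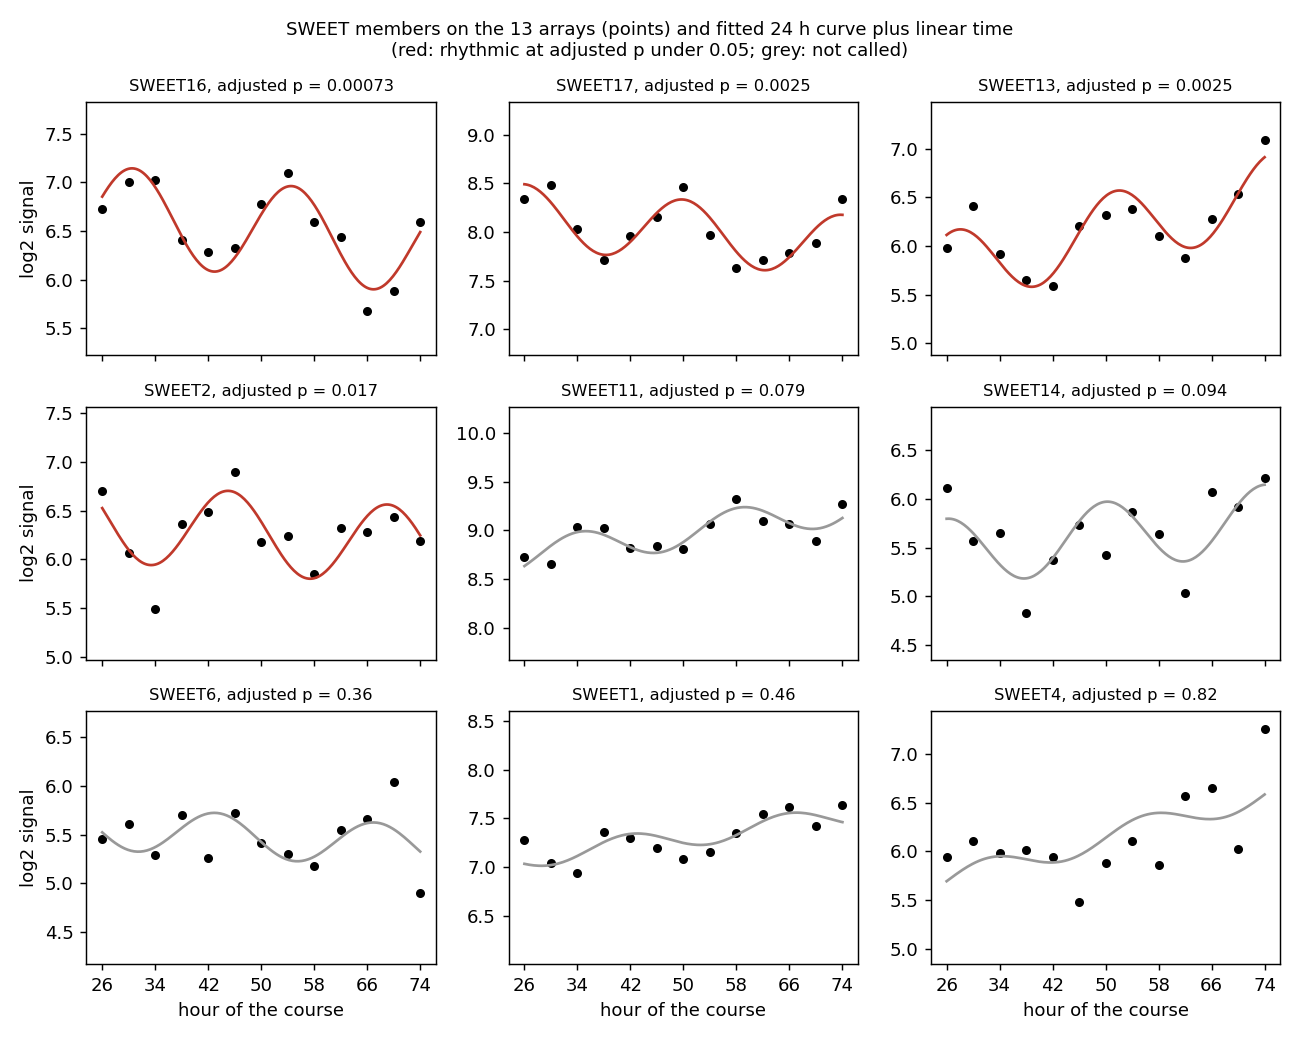
Log2 signal of the 9 members on the 13 arrays (points) against the hour of the course, with the fitted curve in red where the rhythm was called and in grey where it was not. All panels span the same height on the log2 axis. SWEET16 crested near hours 30 and 54, SWEET2 near hours 46 and 70, and SWEET4 had its single highest point at hour 74.

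Of the vacuolar members, SWEET16 (AT3G16690), which transports glucose, fructose and sucrose, had the smallest rhythm p among members. Its signals were 106 at hour 26, 128 at hour 30, 129.9 at hour 34, 85.2 at hour 38, 77.7 at hour 42 and 80.2 at hour 46. In the next cycle they were 109.5 at hour 50, 136 at hour 54, 96.2 at hour 58, 86.5 at hour 62, 51.2 at hour 66 and 59.2 at hour 70, and hour 74 gave 96.8. The 7 highest values were those of the arrays at hours 2, 6 and 10 modulo 24, and all 6 arrays at hours 14, 18 and 22 lay below them. The fitted amplitude was 0.48 ± 0.07 (SE, log2 scale), a 1.96-fold change from trough to peak, with the peak at hour 6.73 ± 0.52 (SE) and limma's adjusted p = 7.27e-04.

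SWEET17 (AT4G15920), a vacuolar fructose transporter of roots and leaves, peaked before SWEET16. It had signals of 325, 357, 261, 209, 248 and 285 from hour 26 to hour 46. From hour 50 to hour 70 the signals were 352, 250.1, 198, 209, 220.2 and 237, and hour 74 gave 324. The 4 highest values were at hours 30, 50, 26 and 74, and the 3 lowest were at hours 58, 38 and 62. The amplitude was 0.32 ± 0.06 (SE, log2), a 1.57-fold change, with the peak at hour 2.01 ± 0.76 (SE) and limma's adjusted p = 0.0025.

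SWEET2 (AT3G14770), a vacuolar glucose transporter known from root cells, had its fitted peak 9.54 h before that of SWEET16. Between their log2 signals over the 13 arrays, Pearson's r was -0.43 and Spearman's rho was -0.59. Its signals were 104, 66.8, 44.9, 82.2, 89.9 and 119 from hour 26 to hour 46. They were 72.3, 75.7, 57.5, 80.2, 77.7 and 86.6 from hour 50 to hour 70, and 72.8 at hour 74. The 2 lowest values were those of hours 34 and 58, both hour 10 modulo 24, and the highest were at hours 46 and 26. The amplitude was 0.42 ± 0.10 (SE, log2), a 1.78-fold change, with the peak at hour 21.2 ± 0.79 (SE) and limma's adjusted p = 0.017. Without hour 46, its highest array, the rhythm was no longer called (amplitude 0.36, adjusted p = 0.075), nor was it in a fit at 26 h (adjusted p = 0.075) or without moderation of the variance (adjusted p = 0.064).

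Among the sucrose transporters of the plasma membrane, SWEET13 (AT5G50800) acts in leaf veins and anthers. It was called rhythmic, beside a fitted rise that was no longer called without hour 74. Its signals were 63.2, 85.0, 60.4, 50.3, 48.3 and 73.8 from hour 26 to hour 46. They were 79.8, 83.7, 68.9, 58.6, 77.5 and 92.9 from hour 50 to hour 70, and 136 at hour 74. The lowest values were at hours 42 and 38, and hour 74 stood above all other arrays. The amplitude was 0.39 ± 0.07 (SE, log2), a 1.72-fold change, with the peak at hour 3.46 ± 0.74 (SE) and limma's adjusted p = 0.0025. In a fit without linear time the call was lost (amplitude 0.36, adjusted p = 0.060).

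SWEET11 (AT3G48740), which exports sucrose from phloem parenchyma, was bright at all times, with a lowest signal of 402 at hour 30, a median of 519.6 and a highest of 641 at hour 58. Its amplitude was 0.17 ± 0.05 (SE, log2), with limma's adjusted p = 0.079, so it was not called. It was called without hour 30 (adjusted p = 0.044), without hour 74 (0.042), without hours 26 and 74 together (0.038) and in a fit at 22 h (0.037). SWEET14 (AT4G25010), a close relative of SWEET13, ranged from 28.4 at hour 38 to 74.3 at hour 74 with a median of 50.4, and its amplitude of 0.35 ± 0.11 (SE, log2) had an adjusted p = 0.094. It was called without hour 50 (amplitude 0.44, adjusted p = 0.026) and without hour 66 (0.42, adjusted p = 0.033). Both had an unadjusted p under 0.05, as did 6 of the 9 members and 31.0% of all probe sets tested.

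The other 3 members were not called. SWEET1 (AT1G21460), a glucose transporter of the plasma membrane, ranged from 123 to 199 with a median of 157 and showed an amplitude of 0.11 ± 0.06 (SE, log2; limma's adjusted p = 0.46). SWEET4 (AT3G28007), a hexose transporter of vascular tissue, ranged from 44.7 at hour 46 to 153 at hour 74 with a median of 64.9, and had an amplitude of 0.12 ± 0.14 (SE; adjusted p = 0.82), which ranged from 0.040 without hour 46 and 0.072 without hour 70 to 0.28 without hour 58. SWEET6 (AT1G66770) ranged from 29.7 at hour 74 to 65.8 at hour 70 with a median of 43.8, and had an amplitude of 0.22 ± 0.11 (SE; adjusted p = 0.36), which was 0.36 without hour 42. An amplitude with an error of this size does not show that these transcripts are flat.

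**Figure D2:**
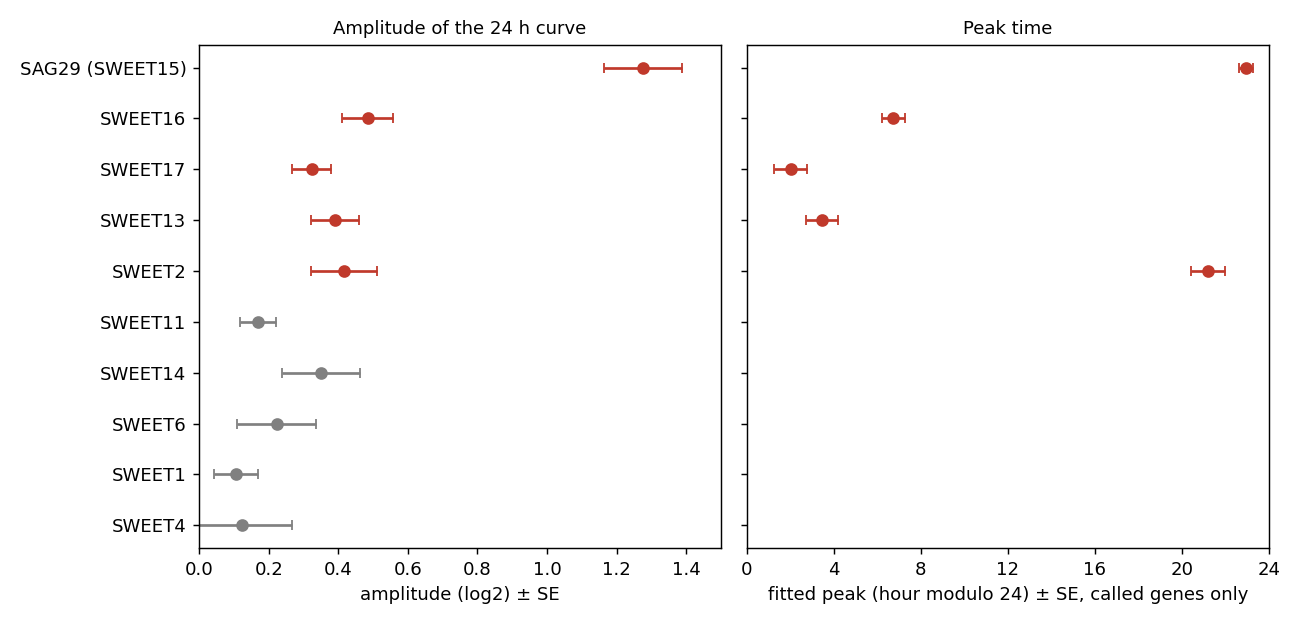
Fitted amplitude (left, log2 scale, points with SE) of the 9 members and SAG29, ordered by rhythm p from the top, and fitted peak (right, hour modulo 24, points with SE) of the called genes, in red. SAG29 had an amplitude of 1.28, the called members lay between 0.32 and 0.48, and the called peaks fell between hour 21.2 and hour 6.73.

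SAG29 (AT5G13170) is the senescence-associated gene also known as SWEET15, and lies outside the selection because the annotation gives its older symbol. Its signals were 367, 116, 52.9, 61.8, 155 and 256 from hour 26 to hour 46. They were 179, 84.6, 50.8, 81.9, 196 and 239 from hour 50 to hour 70, and 274 at hour 74. The 6 arrays at hours 6, 10 and 14 modulo 24 were the 6 lowest. The amplitude of SAG29 was 1.28 ± 0.11 (SE, log2), a 5.87-fold change from trough to peak, with the peak at hour 22.9 ± 0.34 (SE) and limma's adjusted p = 5.58e-06.

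The next question was whether the called members shared a time of day. For each pair, the difference of the fitted peaks was given an interval from the residuals of both genes on the same 13 arrays, and no p-value was computed. Of the 6 pairs of called members, 5 had a 95% interval that left out 0. SWEET16 peaked 9.54 h after SWEET2 (95% interval 7.12 to 12.0 h), and SWEET17 peaked 4.82 h after SWEET2 (1.99 to 7.65 h). The vacuolar pair SWEET16 and SWEET17 was itself 4.72 h apart (2.74 to 6.70 h), with SWEET16 the later. SWEET13 peaked 6.27 h after SWEET2 (3.69 to 8.85 h) and 3.27 h before SWEET16 (1.06 to 5.48 h). SWEET13 and SWEET17 were the pair with an interval that held 0, at 1.45 h (-0.35 to 3.24 h) with SWEET13 the later, and differences of up to 3.24 h remain possible. Set against SAG29, SWEET16 peaked 7.78 h later (6.35 to 9.20 h), SWEET13 4.51 h later (2.73 to 6.28 h) and SWEET17 3.06 h later (1.21 to 4.90 h), while the interval for SAG29 after SWEET2 held 0 (1.76 h, -0.32 to 3.85 h).

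**Figure D3:**
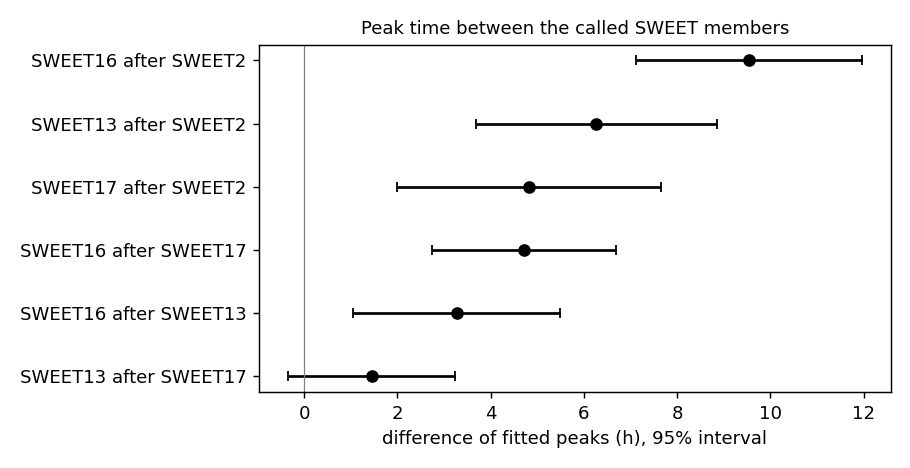
Difference between the fitted peaks of each pair of called members, in hours, with its 95% interval. The 5 upper pairs lie to the right of 0, from 3.27 to 9.54 h, and the interval of SWEET13 after SWEET17 crosses 0.

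Arrays 24 h apart give a description that uses no fitted curve. It rests on the same arrays as the calls, so for the called genes it is not separate evidence of a rhythm. For SWEET16 the root mean square difference of log2 signal was 0.33 over the 7 pairs of arrays 24 h apart and 0.68 over the 10 pairs 12 h apart. The same measures were 0.28 and 0.51 for SWEET17, 0.32 and 0.62 for SWEET2, 0.44 and 0.62 for SWEET13, and 0.53 and 1.77 for SAG29. In 7 of the 9 members the difference at 24 h was the smaller, with SWEET1 (0.32 and 0.26) and SWEET4 (0.66 and 0.42) the exceptions. The measure was likewise smaller at 24 h for 69.4% of all probe sets tested, with medians of 0.24 at 24 h and 0.30 at 12 h.

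The second comparison asked whether the members had a trend through the 48 h beside their 24 h course. SWEET13 rose by 0.40 ± 0.08 (SE, log2 per 24 h) with limma's adjusted p = 0.034, and was the 1 member of 9 called as rising, against 0.359% of all probe sets tested. None was called as falling in limma's moderated test, against 0.601%. For a slope of either sign, 6 of 9 members had an unadjusted p under 0.05, against 11.1% of all probe sets tested. Hour 74 was the highest array of SWEET1, SWEET4, SWEET13 and SWEET14. Its scatter round the fitted curves was the largest of all arrays (SD of log2 residuals 0.2101, next 0.2083 at hour 54). Without hour 74, the slopes of SWEET11 and SWEET1 were smaller, at 0.19 and 0.15. Those of SWEET16 and SWEET17 were further below 0, both at -0.22. The call for SWEET13 did not hold in 11 of 23 alternatives, and in 6 of these 1 array was removed. Without hour 74, its highest array, the slope was 0.33 (adjusted p = 0.15), and without hour 26 it was 0.35 (adjusted p = 0.21). Without hour 42, 46, 66 or 70 the adjusted p lay between 0.053 and 0.090, and without hours 26 and 74 together the slope was 0.28 (adjusted p = 0.46).

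SWEET11 had a slope of 0.25 ± 0.06 (SE, log2 per 24 h) with limma's adjusted p = 0.066 and was not called. SWEET4 had a slope of 0.45 ± 0.16 (adjusted p = 0.25), which was 0.19 without hour 74, and SWEET1 had one of 0.21 ± 0.07 (adjusted p = 0.21). The slope of SWEET14 was 0.18 ± 0.14 (adjusted p = 0.72), and it was 0.29 without hour 26 and 0.11 without hour 66. The vacuolar members had fitted slopes below 0, at -0.18 ± 0.08 for SWEET16, -0.16 ± 0.07 for SWEET17 and -0.14 ± 0.10 for SWEET2 (adjusted p of 0.40, 0.41 and 0.70), and none of them passed. The slope of SWEET2 was -0.07 without hour 26 and -0.0046 without the 24 h terms. SWEET6, which is not a vacuolar member, also had a fitted slope below 0, at -0.10 ± 0.12 (SE, limma's adjusted p = 0.86). The median absolute slope was 0.18 over the members and 0.07 over all probe sets tested.

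**Figure D4:**
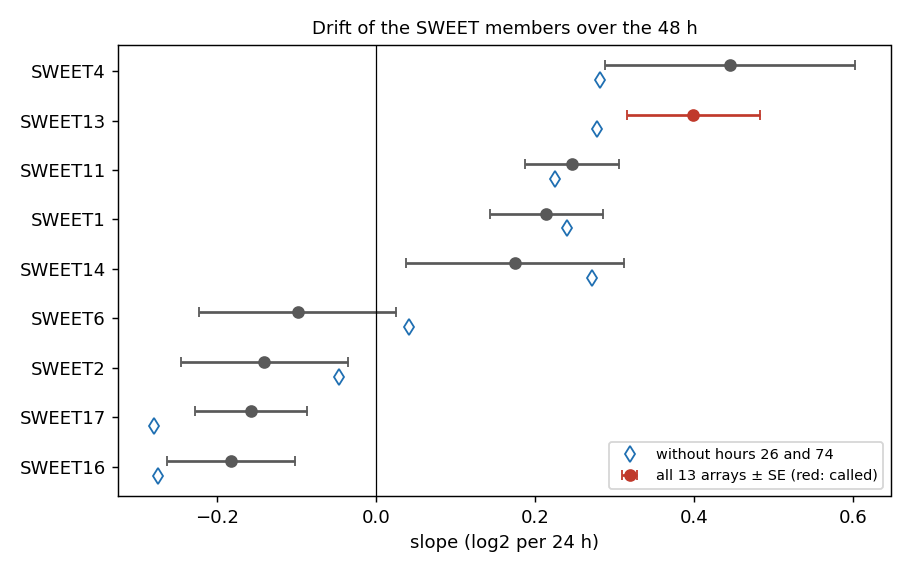
Fitted slope of each member in log2 per 24 h, as points with SE for all 13 arrays (red where called) and as open diamonds for the fit without hours 26 and 74. SWEET13, at 0.40, is the called member, and without the outer arrays its slope was 0.28.

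The third question was whether the later cycle, from hour 50 to hour 70, differed from the earlier one, from hour 26 to hour 46. The arrays of both cycles hold the same 6 times of day. SWEET16 had a fitted amplitude of 0.65 in the later cycle and 0.42 in the earlier (log2), with peaks at hours 6.61 and 7.00. SWEET17 had amplitudes of 0.32 in the later and 0.34 in the earlier cycle, with peaks at hours 1.74 and 3.31. SWEET2 had an amplitude of 0.19 in the later cycle and 0.60 in the earlier, and its 6 arrays lay between 57.5 and 86.6 against 44.9 and 119. The fitted peaks of SWEET2 were at hours 20.9 and 21.8. SWEET13 had amplitudes of 0.26 in the later and 0.33 in the earlier cycle, with peaks at hours 0.58 and 3.82. In the later cycle its fitted peak thus lay before that of SWEET17, and in the earlier cycle after it. The fit by cycle held no linear time, so a trend within a cycle enters its amplitudes and peaks. These are therefore not directly comparable with those of the main fit, and the change of order was not tested.

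By limma's moderated F statistic for the interaction of cycle and daily terms, 0 of the 9 members were called, against 0.00% of all probe sets tested. No member had an unadjusted p under 0.05, against 450 of the 13647 probe sets, or 3.30%. The p of SWEET2 was 0.072 and that of SWEET4 was 0.066 before adjustment (adjusted p = 1.00 for both). For SAG29 the unadjusted p was 0.0042 and the adjusted p 1.00, with amplitudes of 1.13 in the later and 1.40 in the earlier cycle. A fit without moderation also called 0 members. With 6 arrays a cycle, differences of this size may go undetected.

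**Figure D5:**
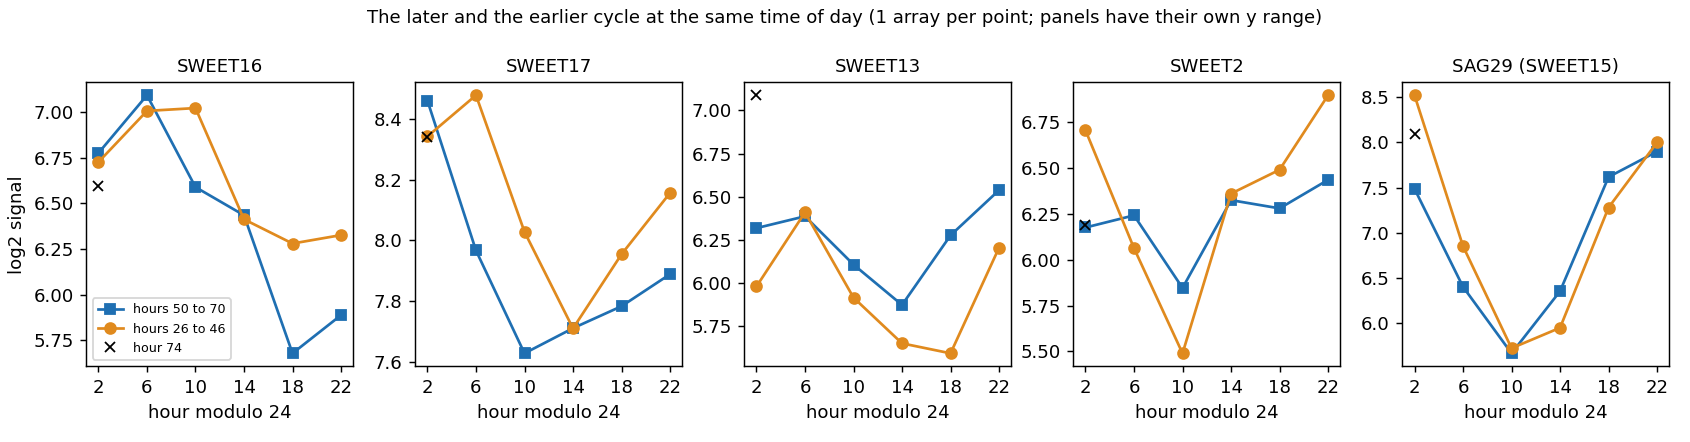
Log2 signal of the called members and SAG29 against the hour modulo 24, with the later cycle as squares, the earlier as circles and hour 74 as a cross, 1 array per point. The lowest point of SWEET2 and of SAG29 fell at hour 10 in both cycles, and SWEET13 at hour 74 lay above both cycles.

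The other sugar genes were taken from 7 lists of 66 loci for carriers and for enzymes that make or split sucrose. Only 14 of the loci had a named probe set here and 11 were tested, and 5 of the 11 were called rhythmic, against 18.3% of all probe sets tested. None of the 11 was called for drift in limma's test (3 had an unadjusted p under 0.05, against 11.1% of all probe sets tested), and their median amplitude was 0.25. The lists too were chosen with earlier results of these data known, so these counts are a description. The 9 sucrose/proton carriers, the plastid carriers and the polyol carriers were not analysed here.

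In sucrose synthesis both tested genes were called. SPS4F (AT4G10120), a sucrose-phosphate synthase, changed 5.43-fold from trough to peak with an amplitude of 1.22 ± 0.12 (SE, log2), a peak at hour 18.7 and limma's adjusted p = 1.41e-05. SPP2 (AT2G35840), the phosphatase that completes sucrose synthesis, changed 1.91-fold with a peak at hour 20.8 (adjusted p = 0.017). Of the 6 vacuolar sugar carriers and their relatives tested, 3 were called. The tonoplast hexose carrier TMT1 peaked at hour 13.2 with a 1.48-fold change, AT5G17010 (VGT2), a relative of a vacuolar glucose carrier, at hour 19.97 with 1.45-fold, and SFP2, of the ERD6-like family, at hour 1.95 with 1.71-fold. TMT2 and SFP1 were bright and not called (limma's adjusted p of 0.25 and 0.57). Neither of the 2 tested hexose carriers of the plasma membrane was called, AT5G61520 (STP3) at an adjusted p = 0.21 and AT1G34580 (STP5) at 0.078. The vacuolar invertase AT1G62660 was not called either (amplitude 0.03 ± 0.12 SE, limma's adjusted p = 0.98).

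For each called member the 3 transcripts with the most similar course were sought among 7346 other probe sets with a single gene, by Pearson's r of log2 signal over the 13 arrays. These are the largest of many values, so they are a description and carry no p. For SWEET16 they were AT4G01330 (r = 0.95, Spearman's rho = 0.97), AT5G07630 (r = 0.92) and AT5G62280 (r = 0.92). For SWEET17 they were AT3G05910 (r = 0.93, rho = 0.93), AT5G35460 (r = 0.90) and CP1 (r = 0.89). For SWEET13 they were AT3G51670 (r = 0.90, rho = 0.90), AT4G27280 (r = 0.89, rho = 0.75) and the gene with the symbol PIP at AT2G14260 (r = 0.89). For SWEET2 they were AT2G04795 (r = 0.89, rho = 0.82), AT3G21690 (r = 0.89) and AT1G58170 (r = 0.89). Of the transcripts named here, AT5G07630, CP1, AT3G51670 and PIP were not themselves called rhythmic.

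The 5 numbered SWEET genes under the level rule are given by their level only. SWEET9, a nectary gene, ranged from 19.7 to 39.1, SWEET8, which acts in anthers, from 18.8 to 32.8, and SWEET3 from 12.9 to 34.02. SWEET10 ranged from 6.83 to 31.1 and SWEET7 from 2.96 to 20.2. SWEET5 (AT5G62850), which like SAG29 is not named by a SWEET symbol in the annotation, ranged from 10.5 to 26.2. Of the 17 family loci listed, 16 had a named probe set, and SWEET12 had none.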

How the data were processed

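The deposited table gives 1 intensity per probe set and array, not in log units. Per the submitters' processing notes, MAS5 was used, and its version is not stated. Every array had the same trimmed mean, so the authors' scaling hides changes in total RNA. No genome build is stated in the sources used here, so no coordinates are printed, and sequences are not used here.

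Log2 intensity of 22746 non-control probe sets was taken, and 13647 with a mean above the 40th percentile were tested in limma 3.58.1 (R 4.3.3) by lmFit and by eBayes with trend. The model held the cosine and sine of 24 h and linear time. Cycles were compared on 12 arrays with the daily terms, the cycle and its interaction with the daily terms, and without linear time. Called means a Benjamini-Hochberg adjusted p under 0.05 over all probe sets tested. Symbols were updated by gene identifier through the TAIR10.1 gene table. A locus in a list was represented by its brightest probe set. Named were the SWEET genes, up to 3 called and 2 uncalled genes per list, and the 3 most similar transcripts of each called member. Members and lists were chosen with earlier results of these data known. The fits were also run on simulated data with independent noise between arrays, which does not check the p-values for arrays with correlated noise. Figures were drawn with matplotlib 3.10.9. Alternatives changed the scaling, offset, filter, variance model, period, terms and arrays.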

Additional observations from a re-analysis of the deposited data

How the results depend on the processing

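Precision is limited by the 13 arrays. The count of rhythmic members was 4, and 3 to 5 over 24 alternatives, which left out each array in turn (3 to 5), left out hours 26 and 74 together, or changed the scaling, offset, filter, variance model, period or terms. SWEET16 and SWEET17 were called in all 24. With 32 added to the signal before the log, amplitudes were smaller (0.36 for SWEET16, 0.27 for SWEET13, 0.29 for SWEET2 and SWEET17) and the count of calls was again 4. The count of rising members, 1, was 0 without a filter, without moderation, at 26 h, without hours 26 and 74 together and without the 24 h terms, and 0 to 1 with each array left out in turn. Slopes that were not called turned in sign for SWEET6 without hours 26 and 74 (0.042) and for SAG29 at 22 h (0.11) and without the 24 h terms (0.22). With each array left out in turn they ranged from -0.19 to 0.064 for SWEET6, above 0 without hour 74 (0.064), and from -0.21 to 0.11 for SAG29, above 0 without hour 26 (0.11). The cause was not tested. The count of members that differed between cycles was 0 in all 20 alternatives. The count of peak differences whose interval left out 0 was 5 in all 15, and that of other rhythmic sugar genes was 4 to 6 over 15. These 15 changed only the scaling or the offset, or left out 1 array. The peak differences were not refitted with another period, filter, variance model or set of terms. No paired analysis was possible because each group has 1 array and all carry replicate number 1, so the numbers pair no samples.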

Other observations

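The period with the lowest residual sum of squares on a grid of 0.5 h steps between 20 h and 30 h was 23.5 h for SWEET16, 23 h for SWEET17, SWEET2 and SAG29, and 22 h for SWEET13. SWEETIE (AT1G67140), whose symbol begins like those of the transporters, ranged from 40.1 at hour 62 to 84.9 at hour 34 and had an amplitude of 0.01 ± 0.11 (SE, log2; limma's adjusted p = 1.00 for rhythm). The transcripts most similar in course to SAG29 were AT1G73650 (r = 0.96 over 13 arrays), AT2G25510 (r = 0.96) and MTP11, a metal transporter (r = 0.96), given as a description with no p.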
